A study of Mus musculus with 15 samples.

Results

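The genes described here are the transcription factor ATF4, its partners and its targets in amino acid supply. They are 39 genes taken from a written list: 6 regulators of transcription and stress signalling, 3 other stress outputs, 10 genes of amino acid and one-carbon synthesis, 9 amino acid transporters and 11 cytosolic aminoacyl-tRNA synthetases. Of the 39, 38 had a value and were tested, among 9919 tested genes in all; the glutamyl-prolyl synthetase gene Eprs had none, and the methionyl synthetase gene Mars is given under its current symbol Mars1. Membership was set by gene name, but the list was chosen with earlier results of these data known, so it is not independent of them.

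When cells lack amino acids, when unfolded protein builds up in the endoplasmic reticulum or when haem is short, kinases phosphorylate the translation factor eIF2 on its alpha subunit. Most protein synthesis then slows, while the Atf4 mRNA, with its upstream reading frames, is translated more. ATF4 pairs with C/EBP family proteins on a composite element, the C/EBP-ATF response element, in genes that make, import and charge amino acids. Because ATF4 is controlled largely at translation, the level of its mRNA is not a measure of the protein. CHOP (Ddit3), TRIB3 and CHAC1 are among the outputs that also link the pathway to cell death.

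The study followed transcripts on exon arrays in a pair of mouse cell lines given the synthetic glucocorticoid dexamethasone at 100 nM. The 3134 line descends by transformation from C127 cells of an RIII mouse mammary tumour, and AtT-20 cells are pituitary corticotrophs from an LAF1 mouse. In each line, arrays were made of total RNA at 0, 2, 4 and 8 h of hormone, 2 per group except 1 for AtT-20 at 8 h, 15 in all. All cells had been kept in charcoal-dextran-treated serum before hormone, in a medium with added glutamine and non-essential amino acids, so no group was starved of amino acids by design. The labels call the 0 h cells untreated in some fields and vehicle treated in others, and no cells were kept without hormone for the later times. Dexamethasone and time in culture therefore cannot be told apart. Each line is a single line, and no label states that the replicates came from separate cultures; p-values therefore measure the spread between arrays, which may be technical. In RNA from whole cultures, fewer cells of a kind and less RNA per cell cannot be told apart.

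Levels are log2 values per gene after quantile normalization of all arrays, the median over the probesets (groups of probes in an exon) of that gene. They are relative within an array, and levels of different genes are not compared. The serial numbers in the sample titles fall into a lower and a higher range in each line, called run 1 and run 2 below. No label states what these numbers mark, so a run is a range of numbers and not a stated batch. The higher range is a different one in each line. Each group has 1 array of each run, and AtT-20 at 8 h has run 1 alone. As deposited, array medians ran from log2 7.51 to 8.14 in run 1 and from 6.76 to 7.22 in run 2. A level of log2 6.59, the 40th percentile, was taken as the floor below which a change is not resolved. Of the 6 corticotroph markers, 6 were at or above it on all AtT-20 arrays and 0 on all 3134 arrays. Of the 6 mesenchymal markers, 6 were above it on all 3134 arrays and 0 on all AtT-20 arrays. Col1a1 and Col1a2 were above it on some AtT-20 arrays, Col1a1 up to 6.99 against 6.73 to 7.59 in 3134. Of the 6 epithelial markers only Krt14 was above it on all 3134 arrays, as were the immune marker Cd68 and the endothelial marker Cdh5. By these counts the 3134 arrays carried a fibroblast-like rather than an epithelial set of markers.

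Promoter sequences are shown first, since the pathway is defined by a DNA element. RefSeq promoters of the mouse build GRCm38.p6, 250 bases before to 50 bases after a start site, were at hand for 32 of the 39 genes. The core letters searched were TGATGNAA on either strand. This core was found at 13 of the 32 genes, or 34.2% of their 38 windows, against 3.97% of all 32851 windows. The 13 were Chac1, Trib3, Nupr1, Vldlr, Asns, Pycr1, Slc7a11, Slc1a4, Aars, Gars, Iars, Tars and Yars. The palindromic glucocorticoid receptor element, searched on both strands as GNACA and TGTNC with 3 bases between them, was in 0 of the members' windows and in 0.475% of all windows. A match is a string of letters and no measure of binding, and these windows do not cover distal elements. The list was drawn from known ATF4 targets, so its share of the element is not independent of the choice of genes.

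The stretches below are from before the start site of 7 of these genes, chosen because Chac1 and Slc7a11 carried the largest falls in 3134 cells and because the others show the element in the roles described below. They read 5′ to 3′ on the gene's own strand, and capitals mark the core, which reads TTNCATCA where it lies on the opposite strand. Chac1 lies at chr2:119350992-119351241 on the plus strand and its core begins at position -193 from the start site. Slc7a11 lies at chr3:50443614-50443863 on the minus strand and holds a pair of cores in opposite orientation.
Chac1: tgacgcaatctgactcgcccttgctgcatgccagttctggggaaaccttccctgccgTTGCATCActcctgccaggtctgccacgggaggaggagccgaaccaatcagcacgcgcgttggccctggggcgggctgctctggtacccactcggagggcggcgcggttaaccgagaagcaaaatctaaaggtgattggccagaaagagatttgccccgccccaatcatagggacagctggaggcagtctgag
Slc7a11: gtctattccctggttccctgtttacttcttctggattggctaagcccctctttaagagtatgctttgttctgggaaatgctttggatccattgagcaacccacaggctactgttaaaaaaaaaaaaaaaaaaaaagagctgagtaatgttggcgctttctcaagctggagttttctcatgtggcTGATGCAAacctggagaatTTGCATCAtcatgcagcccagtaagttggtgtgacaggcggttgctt
Nupr1: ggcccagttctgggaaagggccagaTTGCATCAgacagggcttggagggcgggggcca
Pycr1: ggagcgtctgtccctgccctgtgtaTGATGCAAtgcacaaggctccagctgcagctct
Aars: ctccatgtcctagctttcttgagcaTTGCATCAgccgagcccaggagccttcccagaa
Gars: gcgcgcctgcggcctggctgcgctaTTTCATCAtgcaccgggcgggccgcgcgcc
Asns: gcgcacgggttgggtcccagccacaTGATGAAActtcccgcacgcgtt
The 5 shorter stretches lie at chr7:126625548-126625605 (Nupr1, minus strand), chr11:120643819-120643876 (Pycr1, minus), chr8:111033705-111033762 (Aars, plus), chr6:55037946-55038000 (Gars, plus) and chr6:7693210-7693257 (Asns, minus). They differ at the 1 base that the motif does not fix: Nupr1, Pycr1 and Aars, like Chac1 and Slc7a11, read TGATGCAA or its complement, while Asns and Gars read TGATGAAA or its complement.

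In 3134 cells every member that passed the test against 0 h, with or without the run as a block, was lower, with more of them at 8 h than at 2 h. By limma with Benjamini-Hochberg adjustment over all tested genes, at an adjusted p under 0.05, 1 of 38 members was lower at 2 h (Ddit3), 3 at 4 h (Chac1, Slc6a9 and Ddit3) and 4 at 8 h (Slc7a11, Slc7a1, Chac1 and Slc6a9). Over all tested genes, 0.282% were called lower at 2 h, 0.554% at 4 h and 0.544% at 8 h. No member was higher at any of the 3 times, where 0.948%, 1.35% and 1.64% of all genes were. With the run as a block in the limma fit, 3, 6 and 12 members were lower, against 1.05%, 1.91% and 3.6% of all genes. Of the 3 at 2 h, Stc2 was below the floor in every 3134 group, which leaves 2. Over the mean of the 3 times, 4 members were lower (Chac1, Ddit3, Slc7a1 and Slc6a9), against 0.625% of all genes, and 7 with the block, against 2.52%. The further 3 were Trib3 (-0.49, limma adjusted p = 0.310, and 0.0458 with the block), Atf4 (-0.53, 0.563 and 0.0485) and Nupr1 (-0.53, 0.613 and 0.0394). These counts moved with single arrays and with the scaling. With 1 of the arrays compared left out, limma called 0 members at 2 h, 0 to 1 at 4 h and 1 to 3 at 8 h. On the deposited scale, without quantile normalization, it called 0 at each time without the block and 2, 7 and 19 with it. The median of all tested genes on that scale was itself -0.07, -0.31 and -0.37 at 2, 4 and 8 h. Member medians were -0.07, -0.48 and -0.78, so part of these falls was shared by genes at large. The share of all genes called on that scale is not given here.

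Over the whole list, changes lay mostly below 0 by 8 h. Their median change was -0.04 at 2 h, -0.15 at 4 h and -0.38 at 8 h (log2), while the median of all tested genes was -0.02, -0.02 and -0.01. At 8 h, 32 of 38 members were below 0, and in 25 both 8 h arrays lay below both 0 h arrays, which 22.6% of all genes did. The opposite order, both 8 h arrays above both 0 h arrays, was seen in 4 members and in 20.2% of all genes. Of the 35 members that reached the floor in a 3134 group, 31 were below 0 at 8 h. Both 8 h arrays lay below both 0 h arrays in 25 of these and above them in 3. At 2 h, 6 members had both treated arrays below and 5 had both above, against 16.3% and 14.2% of all genes, and at 4 h these were 14 and 3 members, against 20.1% and 18.3%. Of the 38, 23 had their lowest group mean at 8 h (60.5%, against 29.5% of all tested genes) and 22 their highest at 0 h (57.9%, against 30.4%).

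**Figure D1:**
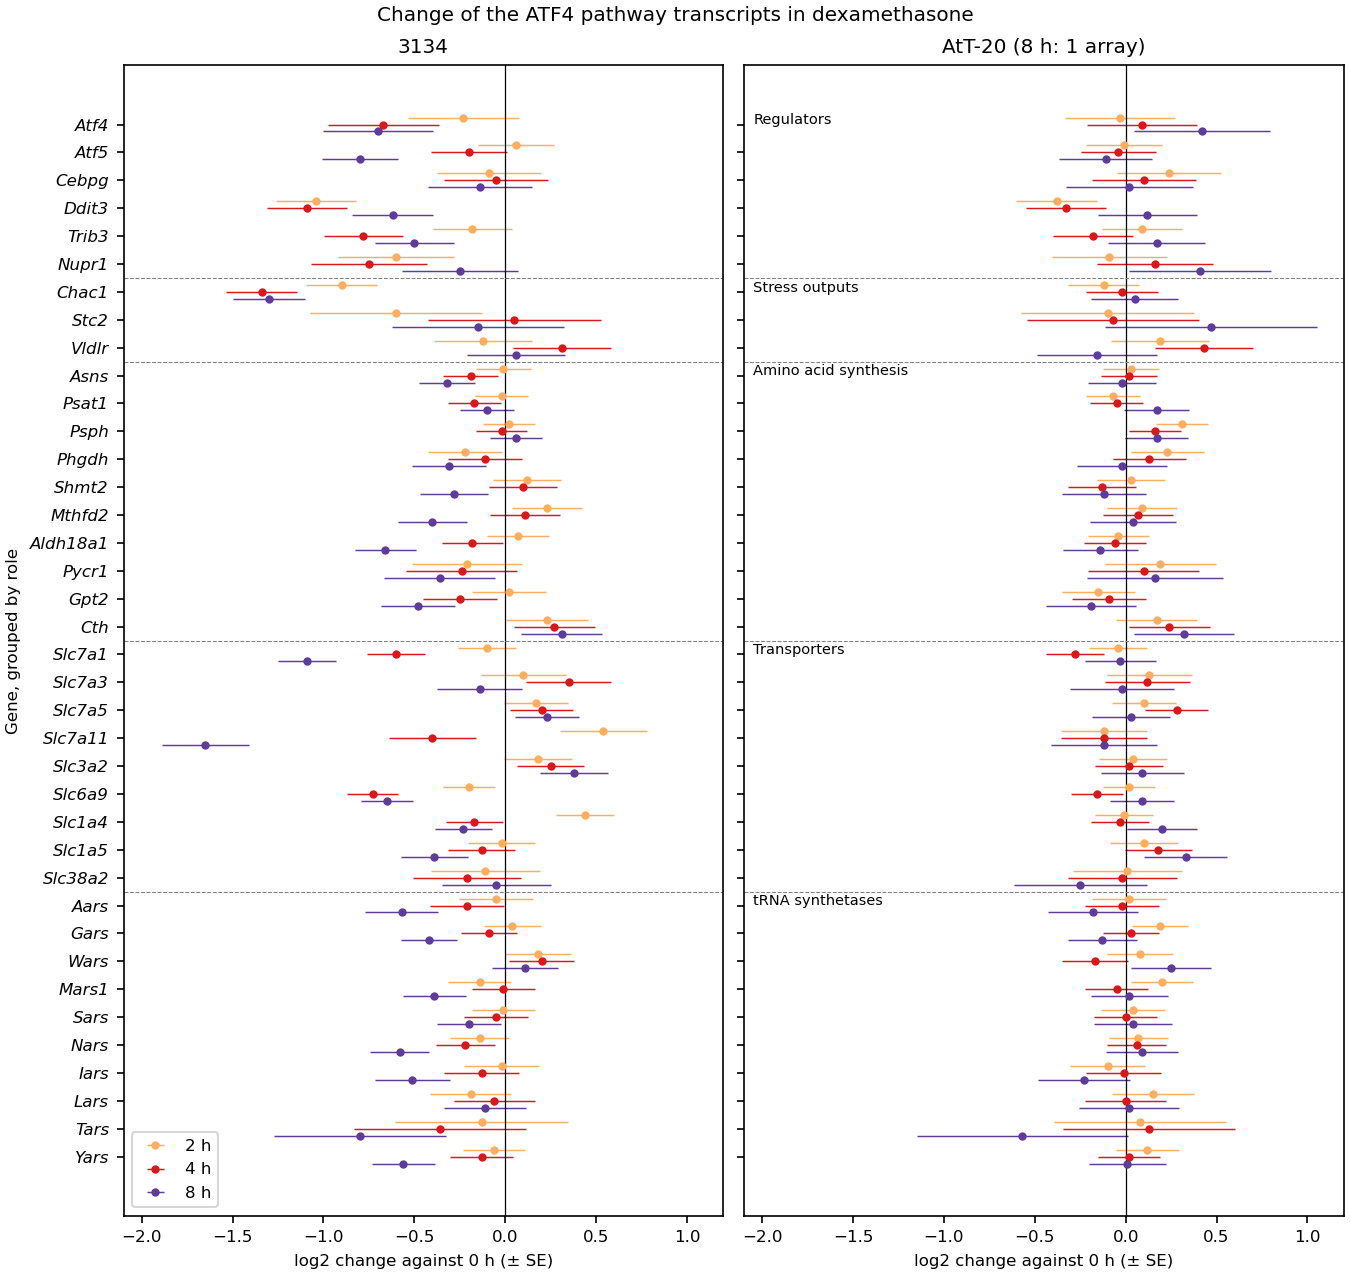
Change against 0 h (log2, points) with its standard error (lines) for the 38 members, by role, at 2, 4 and 8 h in 3134 (left) and AtT-20 cells (right, where 8 h is 1 array). In 3134 cells 32 of the 38 points at 8 h lie below 0, the lowest at -1.65 (Slc7a11), while in AtT-20 cells the 8 h points run from -0.57 to 0.47.

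Among the regulators, Ddit3 changed first. Ddit3 encodes CHOP, a C/EBP family factor induced by ATF4 and tied to cell death under stress. In 3134 cells Ddit3 stood at log2 8.24 and 8.05 at 0 h (run 1 and run 2), 7.30 and 6.91 at 2 h, 7.06 and 7.05 at 4 h, then 7.85 and 7.20 at 8 h. All treated arrays were below both 0 h arrays, and the lowest mean was at 4 h, with the run 1 array nearer the 0 h level at 8 h. The group mean went from 8.15 ± 0.13 (SD, n = 2) to 7.10 ± 0.27 at 2 h, a 2.06-fold fall. The change was -1.04 ± 0.22 (SE) at 2 h (limma, adjusted p = 0.0451) and -1.09 ± 0.22 at 4 h (limma, adjusted p = 0.0243). At 8 h it was -0.62 ± 0.22, which passed limma's test only with the run as a block (adjusted p = 0.252 without it, 0.0305 with it). The calls at 2 and 4 h were each lost when any 1 of the 4 arrays compared was left out, with adjusted p from 0.103 to 0.462 at 2 h and from 0.119 to 0.240 at 4 h. They were also lost with no filter on dim genes (limma, adjusted p = 0.101 and 0.0547) and with the 3134 arrays fitted alone (0.115 and 0.0614). Of the 4 Ddit3 probesets, 4 were lower in both runs at 2 h and 3 at 8 h.

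Trib3, a pseudokinase that is an ATF4 target and restrains ATF4 in turn, stood at 9.09 and 8.56 at 0 h, 8.85 and 8.43 at 2 h, 8.24 and 7.84 at 4 h, then 8.27 and 8.38 at 8 h. Within each run the 4 h array was 0.85 and 0.72 below the 0 h array, and both 4 h arrays were below both 0 h arrays. The 4 h change of -0.78 ± 0.22 passed limma with the block (adjusted p = 0.0124) and not without it (0.131). All 8 of its probesets were lower in both runs at 4 h.

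Nupr1, a small stress-induced chromatin protein, stood at 9.80 and 9.53 at 0 h, 9.50 and 8.63 at 2 h, 9.13 and 8.70 at 4 h, then 9.51 and 9.32 at 8 h. The 4 h arrays were both below the 0 h arrays, and the 8 h arrays were again close to them. Its 4 h change was -0.75 ± 0.32 (limma, adjusted p = 0.511, and 0.0225 with the block).

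Atf4 itself lay lower at 4 and 8 h. Its arrays read 11.37 and 11.17 at 0 h, 11.40 and 10.69 at 2 h, 10.90 and 10.32 at 4 h, then 10.59 and 10.54 at 8 h. The groups overlapped at 2 h and were apart at 4 and 8 h. The change was -0.67 ± 0.30 at 4 h (limma, adjusted p = 0.593, and 0.0517 with the block) and -0.70 ± 0.30 at 8 h (0.387, and 0.0302 with the block). Of 6 Atf4 probesets, 4 were lower in both runs at 8 h, with a median of -0.59.

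Atf5, a related factor that is translated under stress in the same way, stood at 8.70 and 8.75 at 0 h, 9.05 and 8.51 at 2 h, 8.66 and 8.39 at 4 h, then 8.05 and 7.82 at 8 h. The 0, 2 and 4 h arrays overlapped or nearly met, and both 8 h arrays were below all of them. The 8 h change was -0.80 ± 0.21 (limma, adjusted p = 0.0860, and 0.00889 with the block), and all 9 Atf5 probesets were lower in both runs. Cebpg, the usual C/EBP partner of ATF4, had changes of -0.09, -0.05 and -0.14 at 2, 4 and 8 h, and its 8 h arrays moved in opposite directions in the runs (-0.62 and 0.35). None of its changes passed. The 6 regulators had a median of -0.56 at 8 h.

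Of the 3 other stress outputs, Chac1 fell and the other two could not be resolved. Chac1 encodes a gamma-glutamyl cyclotransferase that degrades glutathione and is among the most strongly induced targets of the pathway. It stood at 8.91 and 8.68 at 0 h, 7.97 and 7.83 at 2 h, 7.27 and 7.65 at 4 h, then 7.43 and 7.56 at 8 h in 3134 cells. Every treated array was below both 0 h arrays from 2 h on, and the 4 and 8 h arrays were below both 2 h arrays. The mean went from 8.80 ± 0.16 (SD, n = 2) to 7.46 ± 0.27 at 4 h, a 2.53-fold fall. The change was -1.34 ± 0.20 at 4 h (limma, adjusted p = 0.00326) and -1.30 ± 0.20 at 8 h (limma, adjusted p = 0.00408). At 2 h it was -0.90 ± 0.20, with an adjusted p of 0.0533 by limma and 0.00698 with the block. Without run 1 of the 0 h arrays the adjusted p was 0.0571 at 4 h and 0.0639 at 8 h, and without run 1 of the 4 h arrays it was 0.0527 at 4 h. All 7 Chac1 probesets were lower in both runs at 4 h, from -2.14 to -0.16. At 2 h 5 of the 7 were, and at 8 h 6 of the 7. The median probeset change was -0.52 at 2 h and -0.83 at 8 h, smaller than the gene values.

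Stc2, which encodes the secreted glycoprotein stanniocalcin, and Vldlr, a lipoprotein receptor, were below the floor in every 3134 group. Stc2 stood at 4.85 and 5.46 at 0 h and 4.36 and 4.75 at 2 h, and its 2 h change of -0.60 ± 0.47 passed limma with the block (adjusted p = 0.0182, and 1.00 without it). At such levels this difference cannot be read as a change of the transcript.

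Of the 10 genes of amino acid synthesis, 0 passed limma at 8 h without the block and 1 with it. Without the block 2 of the 10 had an unadjusted p under 0.05, as 11.5% of all genes did. Asns encodes asparagine synthetase, the textbook target of the amino acid response. It stood at 12.39 and 12.23 at 0 h, 12.36 and 12.23 at 2 h, 12.18 and 12.06 at 4 h, then 12.04 and 11.94 at 8 h. In each run the 4 h array was below the 0 h array and the 8 h array below the 4 h array, but the steps were small. The 8 h change was -0.32 ± 0.15 with a 95% interval from -0.65 to 0.02 (limma, adjusted p = 0.468, and 0.162 with the block). Of its 14 probesets, 13 were lower in both runs at 8 h.

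Aldh18a1, which makes the first committed intermediate of proline and ornithine, stood at 10.38 and 10.17 at 0 h, 10.44 and 10.26 at 2 h, 9.89 and 10.30 at 4 h, then 9.61 and 9.62 at 8 h. The 8 h arrays were below all others, while the 0, 2 and 4 h groups overlapped. The 8 h change was -0.66 ± 0.17 (limma, adjusted p = 0.0767, and 0.0229 with the block), and all 22 probesets were lower in both runs. It was the only member of the 10 in this group to pass, with the block, against 0 h.

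The serine and glycine branch (Phgdh, Psat1, Psph and the mitochondrial Shmt2 and Mthfd2) showed 8 h changes of -0.31, -0.10, 0.06, -0.28 and -0.40, of which none passed. Pycr1, which completes proline synthesis in mitochondria, was at -0.36 and the alanine transaminase Gpt2 at -0.48, neither past the test. Cth, which makes cysteine from cystathionine, was below the floor on all 3134 arrays. The median of the 10 was -0.31 at 8 h.

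Of the 9 transporters, 3 were lower at 8 h, with or without the block, and 6 did not pass. Slc7a11 encodes xCT, which exchanges cystine for glutamate across the plasma membrane. It stood at 6.66 and 6.80 at 0 h, 7.20 and 7.34 at 2 h, 6.11 and 6.54 at 4 h, then 5.48 and 4.68 at 8 h. Both 2 h arrays were above both 0 h arrays, and both 4 h and both 8 h arrays were below them. The 2 h change was 0.54 ± 0.24 (limma, adjusted p = 0.938) and the 8 h change -1.65 ± 0.24 (limma, adjusted p = 0.00313), a 3.13-fold fall. From 2 h to 8 h it fell by 2.19 on the log2 scale (limma, adjusted p = 0.0109). The 0 h arrays were just above the floor of 6.59 and the 4 and 8 h arrays below it, so the size of the fall is limited by background and not resolved. The 8 h call against 0 h held with each array left out. The call from 2 h to 8 h was lost without run 1 or run 2 at 2 h (adjusted p = 0.0817 and 0.101) and without run 2 at 8 h (0.0667), and it missed the threshold narrowly with the 3134 arrays fitted alone (0.0502). Of 13 probesets, 11 were higher in both runs at 2 h and 12 lower in both runs at 8 h.

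Slc7a1 encodes the cationic amino acid transporter that imports arginine and lysine. It stood at 11.06 and 10.82 at 0 h, 10.85 and 10.82 at 2 h, 10.28 and 10.40 at 4 h, then 9.77 and 9.92 at 8 h. The 2 h arrays were at the 0 h level, the 4 h arrays below them and the 8 h arrays below those. The change was -0.60 ± 0.16 at 4 h (limma, adjusted p = 0.112, and 0.0337 with the block) and -1.09 ± 0.16 at 8 h (limma, adjusted p = 0.00343), a 2.13-fold fall. The 8 h adjusted p was 0.0639 without run 1 at 0 h. All 11 probesets were lower in both runs at 4 and at 8 h.

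Slc6a9 encodes the glycine transporter GLYT1. It stood at 10.19 and 10.31 at 0 h, 10.08 and 10.02 at 2 h, 9.57 and 9.47 at 4 h, then 9.62 and 9.57 at 8 h. The 2 h arrays were just below the 0 h arrays, and the 4 and 8 h arrays were close together and well below both. The change was -0.73 ± 0.14 at 4 h (limma, adjusted p = 0.0201) and -0.65 ± 0.14 at 8 h (limma, adjusted p = 0.0370). Leaving out any 1 of the arrays compared raised the adjusted p to between 0.0931 and 0.231 at 4 h and between 0.138 and 0.319 at 8 h. With no filter on dim genes it was 0.0539 and 0.0878, and with the 3134 arrays fitted alone 0.0709 at 8 h. All 19 probesets were lower in both runs at both times.

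The other transporters did not pass against 0 h. Slc7a5 and Slc3a2, the light and heavy chain of the large neutral amino acid exchanger LAT1, were 0.17, 0.20 and 0.23, and 0.18, 0.25 and 0.38, above 0 h at 2, 4 and 8 h. Slc3a2 is also the heavy chain of xCT, and its 8 h arrays (11.87 and 11.57) lay above both 0 h arrays (11.49 and 11.19). At 8 h, 12 of 12 Slc3a2 and 12 of 15 Slc7a5 probesets were higher in both runs and 0 of either gene lower in both. Slc1a4, a neutral amino acid transporter, was at 0.44 ± 0.16 at 2 h (limma, adjusted p = 0.545) and -0.23 at 8 h. From 2 h to 8 h its change was -0.67, which passed only with the block (adjusted p = 0.193 without and 0.0353 with it). The glutamine transporters Slc1a5 and Slc38a2 were at -0.39 and -0.05 at 8 h. Slc7a3, another cationic transporter, lay near or under the floor in 3134 cells, from 5.85 to 6.70. The 9 transporters had a median of -0.23 at 8 h.

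**Figure D2:**
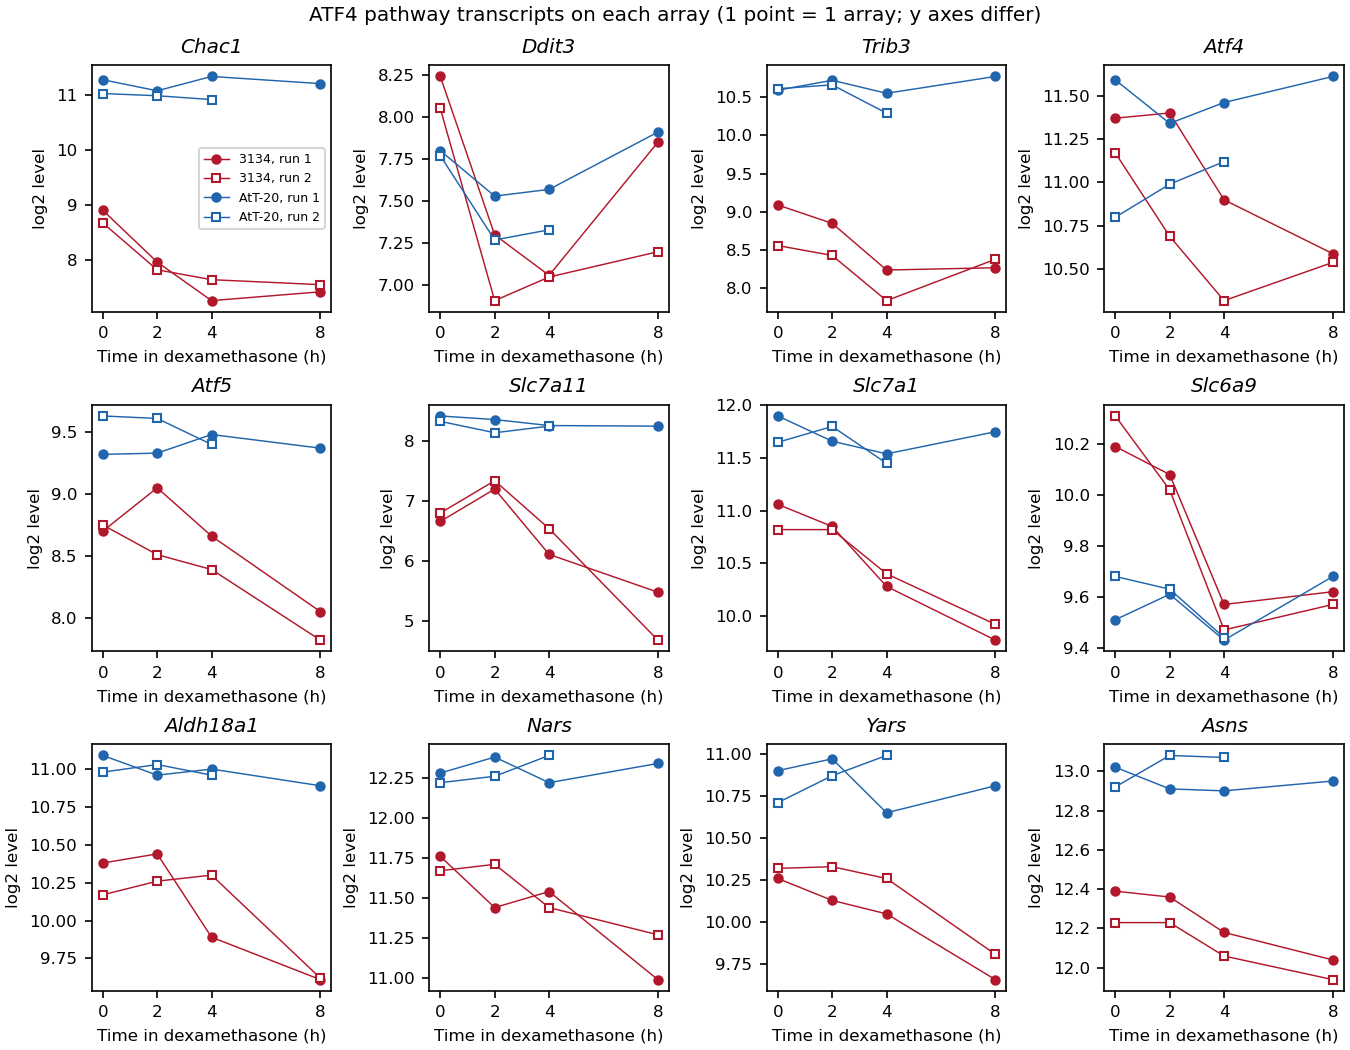
Levels (log2, own axis for each gene) of 12 members on every array against time in dexamethasone, with lines joining arrays of one run; red, 3134; blue, AtT-20; filled circles, run 1; open squares, run 2. In 3134 cells Ddit3 and Chac1 are low from 2 h, Slc7a11 is higher at 2 h and lowest at 8 h, and Atf5, Aldh18a1, Nars and Yars are lowest at 8 h, while in AtT-20 cells no change of these members passed the test.

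Between 2 h and 8 h, further members went down. By limma without the block, 1 member was lower at 8 h than at 2 h (Slc7a11), against 0.0302% of all genes called lower. With the block 5 were lower, against 0.847% of all genes: Slc7a11, Slc1a4, Slc7a1 (-0.99, limma adjusted p = 0.0505 without the block and 0.00474 with it), Aldh18a1 (-0.73, 0.180 and 0.0353) and Atf5 (-0.85, 0.213 and 0.0172). The member median for this step was -0.31, and that of all genes 0.00. Ddit3 and Nupr1 went the other way by 0.42 and 0.36, neither past the test.

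The aminoacyl-tRNA synthetases attach amino acids to their tRNAs, and many cytosolic ones are ATF4 targets. At 2 and 4 h the 10 measured members lay close to 0 in 3134 cells, between -0.36 and 0.20. At 8 h their median was -0.47 and 9 of 10 were below 0, with 8 of 10 at their lowest group mean. By limma without the block 0 passed and 6 of 10 had an unadjusted p under 0.05, against 11.5% of all genes, and Nars, Yars, Aars and Iars passed with it.

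Nars, the asparaginyl enzyme, stood at 11.76 and 11.67 at 0 h, 11.44 and 11.71 at 2 h, 11.54 and 11.44 at 4 h, then 10.99 and 11.27 at 8 h. Its 8 h arrays were below all others, and its change was -0.58 ± 0.16 (limma, adjusted p = 0.114, and 0.0298 with the block). Yars, the tyrosyl enzyme, stood at 10.26 and 10.32 at 0 h, 10.13 and 10.33 at 2 h, 10.05 and 10.26 at 4 h, then 9.66 and 9.81 at 8 h. Its 8 h arrays were again below all others, at -0.56 ± 0.17 (limma, adjusted p = 0.159, and 0.0357 with the block).

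Aars, the alanyl enzyme, stood at 10.84 and 11.06 at 0 h, 10.84 and 10.96 at 2 h, 10.51 and 10.98 at 4 h, then 10.22 and 10.54 at 8 h. The 8 h and 4 h arrays overlapped, and both 8 h arrays were below both 0 h arrays, at -0.57 ± 0.20 (limma, adjusted p = 0.250, and 0.0232 with the block). Iars, the isoleucyl enzyme, stood at 10.59 and 10.82 at 0 h, 10.46 and 10.90 at 2 h, 10.33 and 10.82 at 4 h, then 10.08 and 10.31 at 8 h. Both 8 h arrays were below all others, and the runs gave the same difference of -0.51 at 8 h (limma, adjusted p = 0.346, and 0.0326 with the block). At 8 h, 17 of 19 Nars, 16 of 16 Yars, 28 of 28 Aars and 34 of 35 Iars probesets were lower in both runs.

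Gars, Mars1 and Sars, for glycine, methionine and serine, were at -0.42, -0.39 and -0.20, and Lars, for leucine, at -0.11, none past the test. Tars, the threonyl enzyme, had the lowest value at -0.80 ± 0.47 (limma, adjusted p = 0.609, and 0.0506 with the block). Its 8 h levels were 8.02 in run 1 and 9.47 in run 2, against 9.33 and 9.75 at 0 h. The size of the fall thus came mostly from run 1 (-1.31, against -0.28 in run 2). Of 21 Tars probesets, 20 were lower in both runs. Wars, the tryptophanyl enzyme, which is also an interferon target, was at 0.18, 0.20 and 0.11 and did not share the lower 8 h values.

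Synthetases outside the list were set beside them. Of 11 further cytosolic synthetases and subunits of the synthetase complex, 0 passed limma at 8 h without the block and 2 were lower with it: the cysteinyl enzyme Cars (-0.63, adjusted p = 0.0618, and 0.0116 with the block) and the complex subunit Eef1e1 (-0.72, adjusted p = 0.292, and 0.00980 with the block). Without the block 2 of the 11 had an unadjusted p under 0.05, against 11.5% of all genes, and their median was -0.19. Of 15 mitochondrial synthetases, which are separate nuclear genes, 0 passed limma at 8 h without the block, 3 had an unadjusted p under 0.05 (11.5% of all genes did), and the median was 0.02. With the block Yars2 was lower at -0.63 (adjusted p = 0.0194, and 0.350 without it) and Nars2, for asparagine, was higher at 1.00 (adjusted p = 0.00190, and 0.108 without it). The cytosolic and mitochondrial asparaginyl genes thus lay on opposite sides of 0. Nars2 is also in the list of further ATF4 targets below, where the same change is counted again.

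**Figure D3:**
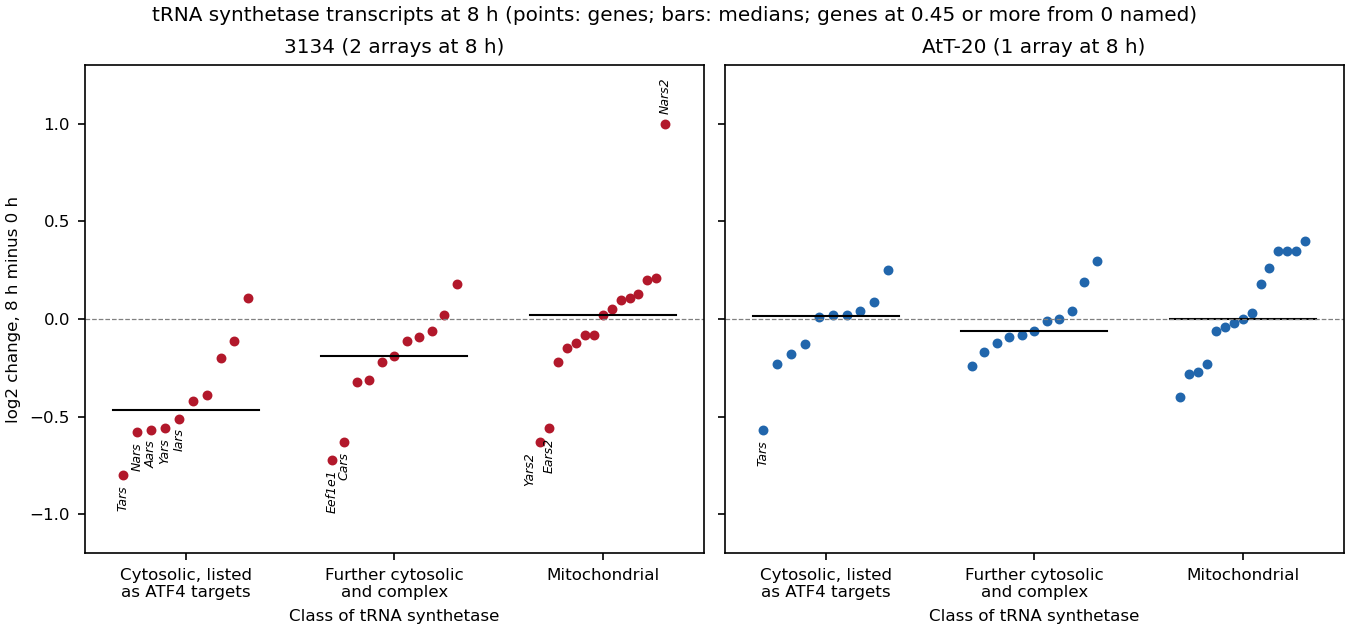
Change from 0 h to 8 h (log2) of tRNA synthetase transcripts in 3134 (left) and AtT-20 cells (right, 1 array at 8 h), for the 10 measured members, 11 further cytosolic or complex genes and 15 mitochondrial ones; each point is a gene and each bar the median of its class. In 3134 cells the medians are -0.47, -0.19 and 0.02, and Nars2 at 1.00 stands alone above.

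Among 19 further ATF4 targets in 3134 cells, 2 were higher and 0 lower at 8 h by limma, and their median was -0.08. With the block 4 were higher (Ddit4, Slc25a33, Nars2 and Cebpb) and 2 lower (Ero1a and Fgf21). Over all tested genes, 1.64% were called higher and 0.544% lower at 8 h without the block, and 3.6% lower with it. The share called higher with the block is not given here. Fgf21 was below the floor in 3134 cells, at 5.82 and 5.89 at 0 h and 5.35 and 5.15 at 8 h. Its difference therefore cannot be read as a change of the transcript. Ddit4, which restrains mTORC1 and is also a glucocorticoid target, rose by 2.06, 2.12 and 1.92 at 2, 4 and 8 h (limma, adjusted p = 9.27e-05, 6.07e-05 and 0.000129). Slc25a33, a mitochondrial pyrimidine nucleotide carrier, rose by 2.77, 2.16 and 1.83 (limma, adjusted p = 0.000450, 0.00234 and 0.00683). Cebpb, a C/EBP factor, rose by 1.19 at 2 h (limma, adjusted p = 0.0207), and its changes of 0.56 at 4 h and 0.57 at 8 h passed only with the block (adjusted p = 0.0327 and 0.0227). Jdp2, an AP-1 family repressor, was lower at 4 h only with the block (-0.69, adjusted p = 0.0359, and 0.123 without it). Sesn2, a leucine sensor and ATF4 target, was at 0.16, 0.17 and -0.26, none past the test.

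Genes upstream gave no change past the test. Of 10 tested genes for eIF2 alpha kinases, phosphatase subunits and related factors, 0 were called at 8 h with or without the block. Over all tested genes, 0.544% were called lower and 1.64% higher at 8 h without it. By limma 0 of the 10 had an unadjusted p under 0.05, where 11.5% of all genes did, so these counts are near the background. The median of the 10 was -0.05. The kinases PERK (Eif2ak3) and GCN2 (Eif2ak4), which respond to unfolded protein and to uncharged tRNA, were at 0.02 and -0.09 at 8 h. Ppp1r15a, the stress-induced phosphatase subunit GADD34, was at 0.16. Kinase activity and eIF2 phosphorylation were not measured. Among 14 targets of ATF6 and XBP1, the other arms of the unfolded protein response, the median at 8 h was -0.02. Herpud1, of endoplasmic reticulum associated degradation, rose by 1.27 at 2 h (limma, adjusted p = 0.0220), and at 8 h it was the 1 gene of the 14 to pass, with the block alone.

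In AtT-20 cells no member was called at 2, 4 or 8 h, with or without the block. By limma 0 of 38 members had an unadjusted p under 0.05 at any of these times, where only 2.39%, 3.4% and 3.05% of all genes did, so this count is near the background. By the adjusted p, 0.0907%, 0.171% and 0.121% of all tested genes were called in either direction (0.323%, 0.857% and 0.444% with the block). Over the mean of 2 and 4 h 0 members were called, against 0.181% of all genes (0.756% with the block). The member medians were 0.04, 0.00 and 0.02. At 2 h, 9 members had both treated arrays above and 3 both below the 0 h arrays, where 11.4% and 10.6% of all genes did. At 4 h, 5 members had both treated arrays above and 5 both below the 0 h arrays, where 9.73% and 11.5% of all genes did. Of 38 members, 12 had their lowest mean at 8 h (31.6%, against 31.2% of all genes). The 8 h values rest on 1 array, of run 1, while the 0 h mean took in both runs.

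Chac1 in AtT-20 stood at 11.28 and 11.03 at 0 h, 11.08 and 10.99 at 2 h, 11.34 and 10.92 at 4 h, and 11.21 on the 8 h array. The groups overlapped, and the changes were -0.12 ± 0.20 at 2 h and -0.02 ± 0.20 at 4 h. Ddit3 stood at 7.80 and 7.77 at 0 h, 7.53 and 7.27 at 2 h, 7.57 and 7.33 at 4 h, and 7.91 at 8 h. Its 2 and 4 h arrays were all below the 0 h arrays, as in 3134 cells, with changes of -0.38 ± 0.22 and -0.33 ± 0.22 that did not pass (limma, adjusted p = 1.00 at both times, and 0.665 and 0.577 with the block).

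Slc7a11 stood at 8.42 and 8.33 at 0 h, 8.36 and 8.14 at 2 h, 8.26 and 8.25 at 4 h, and 8.25 at 8 h, well above the floor throughout. Slc7a1 stood at 11.90 and 11.65 at 0 h, 11.54 and 11.45 at 4 h and 11.75 at 8 h, and Slc6a9 at 9.51 and 9.68 at 0 h, 9.43 and 9.44 at 4 h and 9.68 at 8 h. Both had 4 h arrays below both 0 h arrays but neither change passed the test. Atf4 stood at 11.59 and 10.80 at 0 h and 11.61 at 8 h, with run 1 above run 2 at each time that had both. Asns stood at 13.02 and 12.92 at 0 h and 12.95 at 8 h. The AtT-20 cells did respond on another gene of the pathway: Ddit4 rose by 1.22 at 2 h (limma, adjusted p = 0.0304).

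Whether the lines differed in response was tested directly on the mean of 2 and 4 h, where each had 2 arrays per time. By limma 0 of 38 members passed without the block, against 0.645% of all genes in either direction, and 3 had an unadjusted p under 0.05 (Chac1, Ddit3 and Slc6a9), where 5.53% of all genes did. With the block 1 passed, Chac1, against 0.887% of all genes called lower. The difference for Chac1, 3134 minus AtT-20, was -1.05 ± 0.24 with a 95% interval from -1.57 to -0.52 (limma, adjusted p = 0.0977, and 0.0115 with the block). The difference was -0.71 for Ddit3 and -0.40 for Slc6a9. For 37 of the 38 members no difference in response between the lines was shown, and at 8 h it was not tested, as AtT-20 had 1 array.

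The lines were also compared before hormone. At 0 h, 29 of 38 members were lower in 3134 than in AtT-20 cells and 1 was higher (Slc6a9, 0.65 ± 0.14) by limma, where 30.3% of all genes were lower and 24.3% higher. The member median was -0.99 and that of all genes -0.10. Cth, Stc2 and Vldlr were below the floor in every 3134 group and were tested only through their AtT-20 levels. The direction of their difference was thus set by that filter. Of the 35 members that reached the floor in a 3134 group, 26 were lower and 1 higher, with a median of -0.84. With the block, 31 were lower and 2 higher, against 34.9% and 28.4% of all genes; the further calls were Aars and Iars, lower, and Slc38a2, higher (0.47, limma adjusted p = 0.207 without the block and 0.00685 with it). Another scaling changed these counts. Without quantile normalization 6 were lower and 0 higher without the block. With the block 15 were lower and 3 higher, 18 in all beside the 19 called at 8 h in 3134 cells on that scale, while the median of all genes was 0.40 and that of the members -0.46.

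Cth, at 4.22 and 4.56 in 3134 against 11.66 and 11.57 in AtT-20, had the greatest difference. Vldlr, at 4.12 and 3.88 against 8.58 and 9.10, and Stc2, at 4.85 and 5.46 against 10.13 and 8.99, were likewise below the floor in 3134 and above it in AtT-20. Slc7a3 stood at 5.99 and 6.62 against 11.46 and 11.42. For these 4 the level in 3134 is near background, so the sizes of their differences are not resolved. Cystathionine cleavage by Cth is a route to cysteine other than cystine import by Slc7a11, and Slc7a11 was lower in 3134 too, by -1.65 ± 0.24 (limma, adjusted p = 8.67e-05).

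Among members measured above the floor in both lines, Pycr1 (-2.49 ± 0.31), Chac1 (-2.36 ± 0.20), Psph (-1.95 ± 0.14), Shmt2 (-1.79 ± 0.19) and Trib3 (-1.78 ± 0.22) were lower in 3134. Chac1 was 8.80 ± 0.16 (SD, n = 2) in 3134 against 11.15 ± 0.17 in AtT-20, a 5.13-fold difference (limma, adjusted p = 6.41e-07). Of the 10 synthesis genes 9 were lower, counting Cth, which was below the floor in 3134, and only Phgdh (-0.11) did not pass. Of the 10 synthetases 7 were lower, led by Gars (-1.71) and Wars (-1.14), while Aars (-0.34), Iars (-0.42) and Tars (-0.51) did not pass. With the block Aars and Iars passed too (limma, adjusted p = 0.0487 and 0.00645, against 0.178 and 0.107 without it), 9 of 10 in all. Among regulators, Trib3, Nupr1 (-1.12) and Atf5 (-0.75) were lower. The Atf4 transcript itself did not differ beyond its spread, at 11.27 ± 0.14 in 3134 and 11.20 ± 0.56 in AtT-20, and Ddit3 was 0.36 ± 0.22 higher in 3134 without passing.

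The 2 contrasts share the 0 h arrays of 3134. Side by side, Slc6a9, the one member higher in 3134 before hormone, stood at 10.25 ± 0.09 (SD, n = 2) there and 9.60 ± 0.13 in AtT-20 at 0 h, and at 9.60 ± 0.03 in 3134 after 8 h. Chac1, already lower in 3134 before hormone, went further down, from 8.80 to 7.49.

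**Figure D4:**
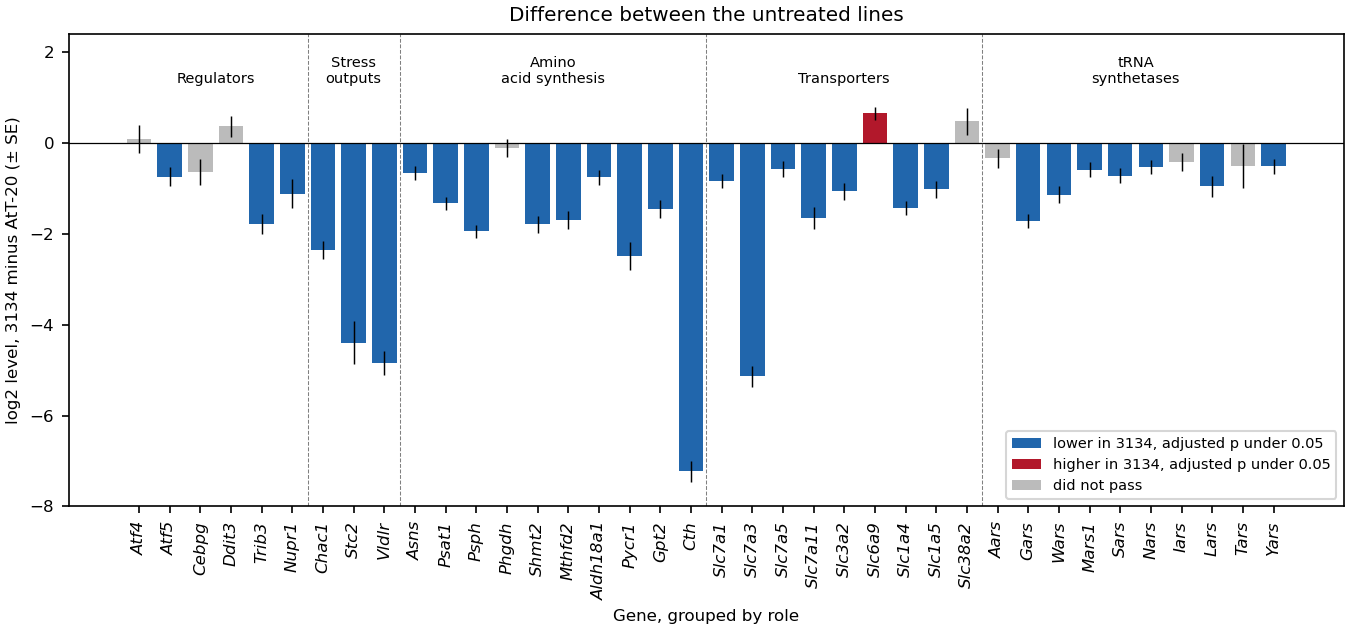
Difference in level (log2, 3134 minus AtT-20, bars) at 0 h with its standard error (lines) for the 38 members by role; blue, lower in 3134 at a limma adjusted p under 0.05; red, higher; grey, not passed. Blue bars are 29, the red bar is Slc6a9 at 0.65, and the 4 longest (Cth, Slc7a3, Vldlr and Stc2) are limited by background in 3134.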

How the data were processed

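The deposited values are log2 probeset signals from mouse exon arrays, made by the authors with RMA in Affymetrix Expression Console per the submitters' processing notes; the genome build is not given in the sources used here. Of 228090 probesets, 207232 mapped to 1 gene symbol in the platform annotation, 3882 to several and 16976 to none; only the first were used, and 2111 of 16207 symbols were updated through RefSeq synonyms. The 15 arrays were quantile normalized, since their deposited medians differed between runs, and a gene's value was the median over at least 3 probesets (15025 genes). Genes whose highest group mean reached the 40th percentile (log2 6.59) were tested, 9919 in all.

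Files were read with data.table (version 1.17.8). One fit of group means with limma 3.58.1 (R 4.3.3) used all 15 arrays and left 7 residual degrees of freedom, moderated variances and Benjamini-Hochberg adjustment at 0.05; the script was tested on simulated data. Same-run arrays of a line deviated together from their group means (r from 0.491 to 0.591 over 9 pairs), so runs were taken as paired. Between the lines these deviations were also correlated, less strongly (r from 0.276 to 0.390 over 12 pairs). Where a block for the run (leaving 5 residual degrees of freedom) changed a member's call, both values are printed. No array pair correlated above 0.992 over genes. The number of arrays limits precision: the median standard error for 2 against 2 arrays was 0.215. Members and lists were chosen with earlier results of these data known. All 38 members are named, and of the other lists genes called, at most 4 a list, plus Sesn2, Ddit4, Ppp1r15a, Eif2ak3 and Eif2ak4; per-array values are given for members called against 0 h in 3134 cells, Atf4 and Asns. No comparison of exons within genes was made.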

Additional observations from a re-analysis of the deposited data

Results flagged for a closer look

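The response of Chac1 differed between the lines only in the fit with the run as a block. The mean change at 2 and 4 h was lower in 3134 than in AtT-20 cells by a log2 difference of -1.05, and the difference was -1.23 in run 1 and -0.87 in run 2. It passed limma's test of the difference with the run as a block (adjusted p = 0.0115) and not without it (0.0977).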

How the results depend on the processing

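Counts of members called are given in the order 2 h, 4 h, 8 h, mean of the 3 times and 8 h against 2 h in 3134 cells; they were 1, 3, 4, 4 and 1 as reported. With the run as a replicate block they were 3, 6, 12, 7 and 5, with 1 for the difference in response; in AtT-20 cells the block changed no call. Without added normalization (all-gene medians of -0.07, -0.31 and -0.37 at 2, 4 and 8 h) they were 0, 0, 0, 0 and 0, with 6 at 0 h between lines. The deposited scale with the block gave 2, 7, 19, 8 and 10, with 1 for the difference in response and 18 between lines. Arrays centred on their medians gave 2 for the mean of the 3 times. Centring with the block gave 2, 7, 15, 7 and 10, and 2 for the difference. The mean over probesets gave 5 at 4 h, 7 at 8 h and 5 for 8 h against 2 h. No filter on dim genes gave 0 at 2 h, 1 at 4 h and 2 for the mean of times, the 60th percentile filter 2 for 8 h against 2 h, and the line compared alone 0 at 2 h, 2 for the mean and 0 for 8 h against 2 h. With each array left out in turn, a lone array being taken to vary as arrays elsewhere do, counts were 0 to 0, 0 to 1, 1 to 3, 1 to 3 and 0 to 1, from 25 to 27 between lines, and 0 in all AtT-20 comparisons and for the difference. The only AtT-20 array at 8 h could not be left out. Shares of all genes called are given above only for the main fit and the fit with the block. Counts under the other settings are therefore not set against a background. Of 67 member changes that passed with or without the block, 1 turned its sign under any of these settings (Aars at 0 h between lines). Of 351 that did not pass, 214 did, among them 9 of 26 at 8 h in 3134 cells, so their signs are not settled. Signs of genes outside the members were not followed. Changes near the floor (Stc2, Vldlr, Cth, Slc7a3 and Slc7a11 in 3134) are limited by signal over background.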
